A study of Mus musculus with 2 samples.

Results

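The genes described here encode transporters and enzymes that carry glucose into the cell and break it down to pyruvate and lactate. Others act at pyruvate dehydrogenase, divert glucose phosphate into the pentose phosphate route or store it as glycogen. The genes were a list of 40 gene symbols looked up in the deposited table. The table held 39 under the listed symbol, and Pkm, the muscle-type pyruvate kinase gene, was found under its older symbol Pkm2 on chromosome 9. All 40 passed the minimum mean of 50 on the count scale, among 12809 genes that did so and 13138 in the table.

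RNA sequencing libraries, 1 per group, of primary mouse chondrocytes were compared, both from micromass cultures, in which cells are plated as a dense drop and form cartilage-like nodules. The library called Cre here came from cells given an adenovirus that carries Cre recombinase, an enzyme that cuts out DNA between loxP sites, and its genotype is labelled Hdac3 knockout. The library called GFP came from cells given a control adenovirus with green fluorescent protein and is labelled wild type. Both carry the strain label C57Bl/6. The labels do not state the floxed allele, the age or the number of animals or dishes behind each library. The series set out to find genes that are higher or lower in chondrocytes without Hdac3, a histone deacetylase. With 1 library in each group, the spread between replicates is unknown, no test was run, and what follows describes this pair of libraries only.

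Levels are given as log2 normalized counts, as the authors deposited them, and differences are Cre minus GFP on that log2 scale. A gene was called higher or lower at a fold of 1.5, which is a difference of 0.58. The total over the Hdac3 gene was 10.68 in Cre and 10.69 in GFP, so it gave no sign of a knockout, and a total over the whole gene does not show whether some exons were lost. Chondrocyte markers were abundant, with the cartilage collagen gene Col2a1 at 19.97 in Cre and 20.35 in GFP, and all 13 measured markers of that list were lower in Cre, with a median of -0.55. Since these are bulk cultures, fewer cells of a type and less RNA per cell cannot be told apart.

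Cartilage has few or no blood vessels, and chondrocytes are known to draw much of their energy from glycolysis, with lactate as an end product that must leave the cell. Many glycolytic genes are known targets of hypoxia-inducible factors, transcription factors (HIF) that oxygen-sensing hydroxylases mark for destruction when oxygen is present. Pyruvate dehydrogenase kinases (PDK) phosphorylate, and so switch off, the pyruvate dehydrogenase complex.

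The windows before the starts of 7 genes are shown because 6 of them were the only members called at 1.5-fold, all higher in Cre, and Ldhb was the lowest member. Each sequence is the 250 bases before the most upstream RefSeq start on GRCm38.p6, read on the gene's strand. The GENCODE M21 gene models of Ldha and Slc16a3 begin further upstream, so their windows lie inside the gene spans given for them. The models of Pfkfb3 and Slc2a1 begin within their windows, so part of each window lies inside the gene span. The marked site of Pfkfb3 lies in that part. Capitals mark the letters ACGTG or GCGTG on that strand and their reverse complements CACGT or CACGC, the core letters of the HIF response element.
Slc16a1, chr3:104638414-104638663, plus strand: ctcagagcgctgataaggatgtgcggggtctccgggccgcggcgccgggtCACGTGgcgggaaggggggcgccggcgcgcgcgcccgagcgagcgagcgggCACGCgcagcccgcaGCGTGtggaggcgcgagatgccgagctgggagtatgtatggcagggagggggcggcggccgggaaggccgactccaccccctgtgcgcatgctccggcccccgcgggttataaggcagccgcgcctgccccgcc
Slc16a3, chr11:120948817-120949066, plus strand: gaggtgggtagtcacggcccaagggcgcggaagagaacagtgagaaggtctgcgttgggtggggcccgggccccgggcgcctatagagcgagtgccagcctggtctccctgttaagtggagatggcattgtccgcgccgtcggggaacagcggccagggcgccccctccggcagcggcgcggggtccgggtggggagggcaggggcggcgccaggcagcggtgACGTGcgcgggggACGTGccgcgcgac
Pfkfb3, chr2:11553930-11554179, minus strand: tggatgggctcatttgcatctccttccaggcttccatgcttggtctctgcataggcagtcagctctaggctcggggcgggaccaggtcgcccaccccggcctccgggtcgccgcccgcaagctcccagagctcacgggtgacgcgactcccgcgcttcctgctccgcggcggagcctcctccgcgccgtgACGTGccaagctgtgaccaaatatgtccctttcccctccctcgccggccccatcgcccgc
Slc2a1, chr4:119108495-119108744, plus strand: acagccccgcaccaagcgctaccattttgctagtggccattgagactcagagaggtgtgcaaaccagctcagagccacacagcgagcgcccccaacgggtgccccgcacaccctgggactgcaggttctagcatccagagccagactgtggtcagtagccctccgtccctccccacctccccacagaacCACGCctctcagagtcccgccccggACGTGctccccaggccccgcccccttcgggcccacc
Gys1, chr7:45434589-45434838, plus strand: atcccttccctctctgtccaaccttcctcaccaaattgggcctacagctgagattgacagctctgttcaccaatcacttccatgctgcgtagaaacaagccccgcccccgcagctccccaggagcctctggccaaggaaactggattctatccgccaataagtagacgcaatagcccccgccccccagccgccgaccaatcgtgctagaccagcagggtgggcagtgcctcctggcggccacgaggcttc
Ldha, chr7:46845554-46845803, plus strand: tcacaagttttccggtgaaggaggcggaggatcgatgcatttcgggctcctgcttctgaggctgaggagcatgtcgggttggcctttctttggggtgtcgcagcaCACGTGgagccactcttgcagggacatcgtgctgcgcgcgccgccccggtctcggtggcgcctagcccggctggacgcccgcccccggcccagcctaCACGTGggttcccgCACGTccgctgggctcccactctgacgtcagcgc
Ldhb, chr6:142507958-142508207, minus strand: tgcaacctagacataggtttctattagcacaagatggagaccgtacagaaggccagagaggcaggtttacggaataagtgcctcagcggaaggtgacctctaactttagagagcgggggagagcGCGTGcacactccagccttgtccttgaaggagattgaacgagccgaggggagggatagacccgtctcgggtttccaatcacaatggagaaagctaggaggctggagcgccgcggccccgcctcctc

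Of the 39 members with such a window, 31 (79.5%) held at least 1 of these letter runs, where overlapping runs on opposite strands that share their CG were counted as 1 site. The share was 38.6% over the windows of all 27025 genes in the sequence table and 56.6% over 9153 genes tested here that could be matched by symbol. Ldha and Slc16a1 held 3 sites each, Slc16a3 and Slc2a1 held 2, Pfkfb3 and Ldhb held 1, and Gys1 held 0. In Slc16a3 both sites lay close to the start, with their CG at 26 and 13 bases before it. The presence of a site did not separate the members by their difference. It was found in 14 of 20 windows (70.0%) of members higher in Cre by at least 0.32 on the log2 scale. Of the other members, 17 of 19 windows (89.5%) held a site. At least 2 sites were found in 10 of the first 20 windows and 4 of the other 19. The share with at least 2 sites was 24.6% over the 9153 genes tested and 13.9% over all 27025 genes. Among the 544 of the genes tested that were higher in Cre by at least 0.32, it was 18.6%. A link between the number of sites and the difference was not tested. Every site holds a CG, and among the windows shown CG pairs ran from 11 for Gys1 to 37 for Slc16a1. The site counts were not adjusted for CG content. These counts depend on the start used, since only the window before the most upstream start was counted. Hk1, Aldoa and Pkm, all among the members higher in Cre by at least 0.32, had 0 sites there. In another window of the same gene they had up to 3, 1 and 1. Pfkfb3 had 1 site in the counted window and up to 2 in another. Of the members not higher by 0.32, Pfkfb2, Pfkm and Eno1 had 1 site each and up to 3, 2 and 2 in another window. A match describes the letters only, since binding was not measured. Slc2a3 had no window.

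Of the 40 members, 31 were above 0, 6 were called higher and 0 were called lower. Over all genes tested, 49.9% were above 0, 2.25% were called higher and 0.952% lower. The median difference of the members was 0.37, with quartiles of 0.01 and 0.51, against a median of -0.00041 over all genes tested, with quartiles of -0.09 and 0.09. Without 9 members that have near-identical copies elsewhere in the genome, the median of the other 31 was 0.16. At a difference of 0.32, 21 members were higher and 0 were lower, where 6.02% and 4.36% of all genes were. At 2-fold, the only members called were both lactate transporter genes, higher in Cre, where 0.734% of all genes were higher and 0.0703% lower. Of the 6 called, 4 overlap another annotated gene (Slc16a1, Pfkfb3, Slc2a1 and Gys1) and could share reads with it. The members' summed linear values made up 1.38% of the total in Cre and 0.961% in GFP when the ribosomal RNA precursor Rn45s and Lars2 were left out of the totals.

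**Figure D1:**
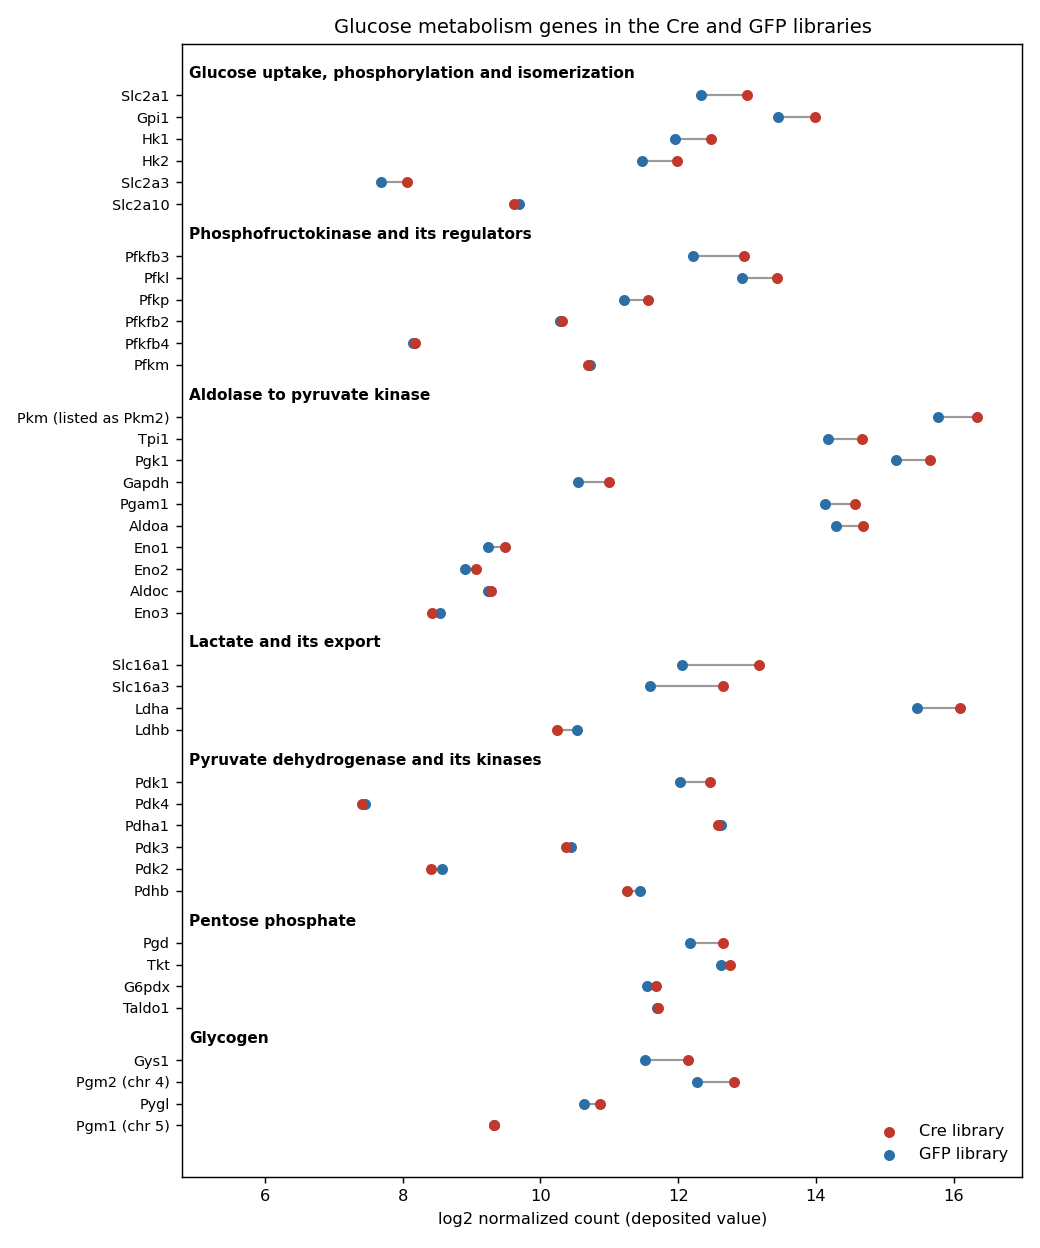
Deposited log2 normalized count (horizontal axis) of each of the 40 genes in the Cre library (red) and the GFP library (blue), grouped by step and ordered within a step by the difference; each point is 1 library. The red point lies right of the blue one for 31 genes, by most in Slc16a1 and Slc16a3 and on the other side by most in Ldhb.

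Both lactate exporter genes had larger differences than any other member. Slc16a1, which encodes a monocarboxylate transporter that moves lactate with a proton across the membrane, had 13.17 in Cre and 12.05 in GFP, a 2.17-fold difference. It lies on the plus strand of chromosome 3 at 104638668 to 104658462 (GRCm38, GENCODE M21). Slc16a3, which encodes the related transporter of highly glycolytic cells, had 12.65 in Cre and 11.60 in GFP, a 2.07-fold difference, and lies on the plus strand of chromosome 11 at 120948480 to 120960868. Of the 500 genes nearest in mean level, 98.8% had a lower difference than Slc16a1 and 99.2% a lower one than Slc16a3. The same share was 97.8% for Hk1, 95% for Ldha, 94.8% for Pkm, 92.8% for Pgk1 and 91.6% for Aldoa. Several abundant glycolytic genes thus stood out less from genes of like level than these 2 transporter genes did. Slc16a7, a further transporter gene of this family from a related list, picked after its value was known, was far less abundant per kilobase and differed by -0.02.

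The lactate dehydrogenase subunits went in opposite directions. Ldha, whose subunit favours making lactate from pyruvate, had 16.09 in Cre and 15.47 in GFP, a difference of 0.62 or 1.53-fold (chromosome 7, plus strand, 46841475 to 46855627). Ldhb, whose subunit favours the reverse reaction, had 10.24 in Cre and 10.53 in GFP, a difference of -0.29, the lowest of all 40 members (chromosome 6, minus strand, 142490249 to 142507957). Ldhb was not past the threshold of 1.5. Per kilobase of merged exons, Ldhb made up 3.51% of the summed lactate dehydrogenase level in Cre and 6.41% in GFP.

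Of the glucose transporter genes, 1 of 3 was called higher. Slc2a1, the gene of the basal glucose transporter, had 13.00 in Cre and 12.34 in GFP, a 1.59-fold difference (chromosome 4, plus strand, 119108711 to 119137983). Slc2a3, which encodes a high-affinity transporter best known from neurons, had 8.07 in Cre and 7.68 in GFP, a difference of 0.39. Slc2a10, a transporter gene whose loss causes arterial tortuosity in people, had 9.62 in Cre and 9.69 in GFP, a difference of -0.07. Among these 3 transporter genes Slc2a1 made up 90.1% of the level per kilobase in Cre and 85.1% in GFP.

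The hexokinase genes Hk1 and Hk2, whose enzymes trap glucose in the cell by phosphorylating it, differed by about the same amount. Hk1 had 12.48 in Cre and 11.95 in GFP, a difference of 0.53, and Hk2 had 11.98 in Cre and 11.48 in GFP, a difference of 0.51. Hk1 and Hk2 were at like levels per kilobase, at 44.7% and 45.4% of the hexokinase level in Cre and 43.2% and 44.5% in GFP, with Hk3, the hexokinase of blood cells, as the rest, a gene picked after its value was known. Gpi1, which turns glucose phosphate into fructose phosphate, had 13.99 in Cre and 13.44 in GFP, a difference of 0.55. The hexokinase and isomerase genes thus lay just short of the threshold, and the median of this step was 0.52 over 6 genes.

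At phosphofructokinase, the enzyme that commits sugar to glycolysis, the isoforms differed from each other. Pfkl, the liver-type subunit gene, had 13.43 in Cre and 12.93 in GFP, a difference of 0.50, and Pfkp, the platelet type, 11.57 in Cre and 11.21 in GFP, a difference of 0.36. Pfkm, the muscle type, was level at 10.69 in Cre and 10.72 in GFP. Pfkl was the most abundant per kilobase, with 69.6% of the phosphofructokinase level in Cre and 63.1% in GFP, and Pfkm made up 20.9% in Cre and 27.3% in GFP.

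The PFKFB genes encode enzymes that make and remove the fructose bisphosphate that activates phosphofructokinase. Pfkfb3, the isoform with the strongest bias towards making it, had 12.96 in Cre and 12.21 in GFP, a 1.68-fold difference (chromosome 2, minus strand, 11471433 to 11554077). Pfkfb2 and Pfkfb4 differed by 0.04 and 0.02. Pfkfb3 made up 80.0% of the PFKFB level per kilobase in Cre and 70.7% in GFP. The step's median was 0.20 over 6 genes, of which 1 was called higher, Pfkfb3.

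**Figure D2:**
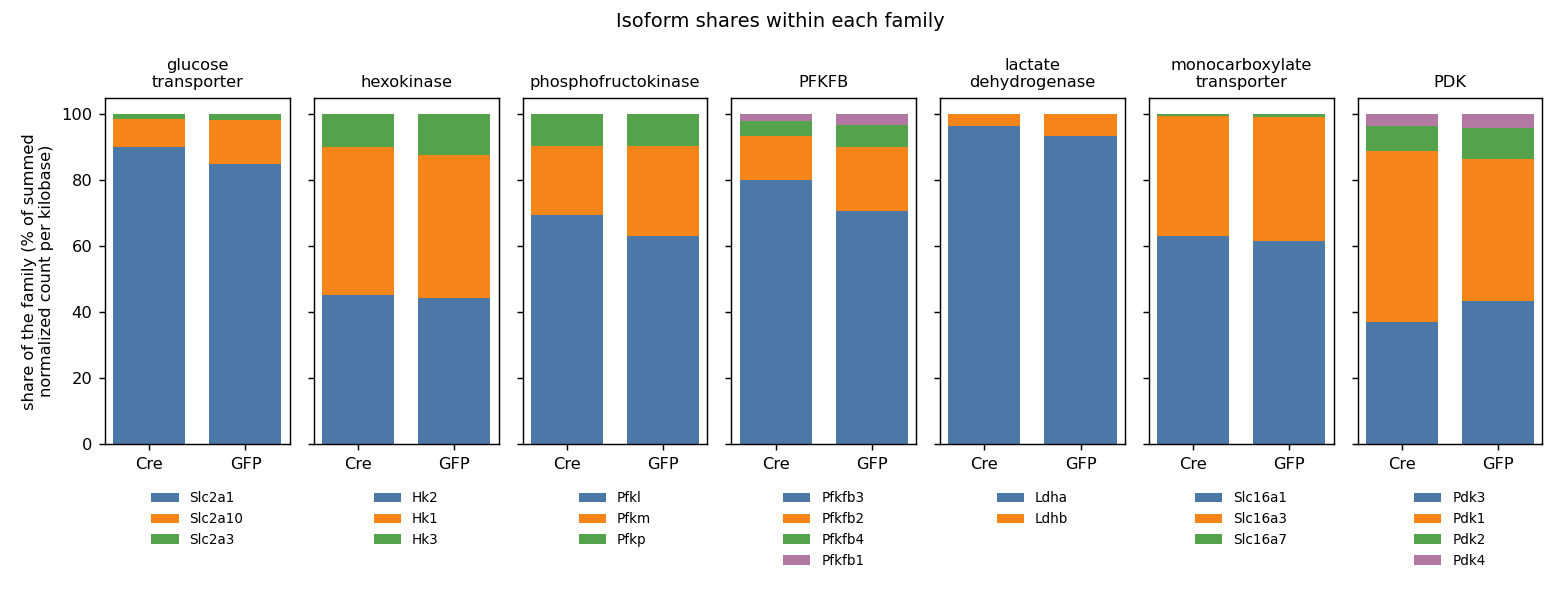
Share of each isoform (vertical axis, percent of the family's summed normalized count per kilobase of merged exons) in the Cre and GFP libraries, 1 stacked bar per library, for 7 families. Slc2a1, Pfkl, Pfkfb3, Ldha and Pdk1 take a larger share in Cre; Slc16a1 and Slc16a3 keep nearly the same shares because both were higher.

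From aldolase to pyruvate kinase, 9 of 10 genes lay above 0, with a median of 0.42, and none was past the threshold. Pkm, whose enzyme makes pyruvate, had the highest count of all members, not divided by length, and lay just short of the threshold, at 16.34 in Cre and 15.77 in GFP, a 1.49-fold difference. A total over the gene does not tell its spliced isoforms apart. Tpi1, the triose phosphate isomerase gene, had 14.68 in Cre and 14.17 in GFP, and Pgk1, the phosphoglycerate kinase gene, 15.66 in Cre and 15.17 in GFP. These correspond to differences of 0.51 for Tpi1 and 0.49 for Pgk1. Pgam1, the phosphoglycerate mutase gene, had 14.57 in Cre and 14.13 in GFP, and Aldoa, the main aldolase gene outside liver and brain, 14.69 in Cre and 14.29 in GFP, differences of 0.44 and 0.40. The brain-type aldolase gene Aldoc was level, at 9.28 in Cre and 9.24 in GFP, and made up 2.05% of the aldolase level per kilobase in Cre and 2.62% in GFP.

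Gapdh and the enolase genes had lower levels than their neighbours in the pathway. Gapdh, which encodes glyceraldehyde phosphate dehydrogenase, had 10.999 in Cre and 10.552 in GFP, a difference of 0.45. As a linear normalized count per kilobase of merged exons it had 495 in Cre and 363 in GFP. The adjacent Tpi1 had 9511 in Cre and 6701 in GFP on that scale, and Pgk1 23004 in Cre and 16391 in GFP. Gapdh also had by far the most near-identical copies, with 43 other annotated genes, 39 of them pseudogenes, that match it over at least 300 bases at 95% identity or more. Reads that fit several copies may have been dropped or split, so its level here is uncertain, and the effect of the copies on its difference was not tested. Its pseudogene Gm12070, named after its value was seen, had 5.99 in Cre and 5.82 in GFP.

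As summed here, enolase was the 1 reaction of the main route whose level was nearly the same in both libraries. Eno1, the enolase of most tissues, had 9.49 in Cre and 9.24 in GFP, a difference of 0.25. Its 3 near-identical copies include Eno1b, listed under its older symbol Gm5506 and named after its value was seen, at 6.60 in Cre and 6.32 in GFP, a difference of 0.27. Eno2, the neuronal enolase gene, had 9.06 in Cre and 8.90 in GFP, and Eno3, the muscle enolase gene, 8.42 in Cre and 8.55 in GFP, a difference of -0.13. Over these 3 genes the summed level per kilobase in Cre was 1.04-fold that of GFP. Eno3 made up 44.4% of that sum in Cre and 50.2% in GFP, and Eno1 30.1% in Cre and 26.2% in GFP. The shares and the ratio depend on the merged exon lengths used, 5379 bases for Eno1 and 1739 for Eno3. Before division by length, Eno1 had the higher count of these 2 genes. The near-identical copies make the level of Eno1 uncertain too. The sum therefore does not settle whether enolase differed.

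Summed over isoforms and taken per kilobase, 10 of 11 reactions from hexokinase to lactate dehydrogenase were higher in Cre by at least 0.32 on the log2 scale. The ratio of sums ran from 1.28 for phosphofructokinase to 1.49 for both pyruvate kinase and lactate dehydrogenase. Enolase, where the level of Eno1 is uncertain, lay outside this range at 1.04. The other reactions thus differed by like amounts, and none of these sums reached 1.5.

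At pyruvate dehydrogenase and its kinases, 5 of 6 genes lay below 0, with a median of -0.06. Pdk1, the kinase gene known as a HIF target, was the exception, at 12.46 in Cre and 12.03 in GFP, a 1.35-fold difference. The kinase gene Pdk3 had 10.37 in Cre and 10.45 in GFP, Pdk2 had 8.42 in Cre and 8.57 in GFP, and Pdk4, the fasting-induced kinase gene, 7.41 in Cre and 7.46 in GFP. Pdk1 made up 51.8% of the PDK level per kilobase in Cre and 42.9% in GFP, and Pdk3 37.0% in Cre and 43.5% in GFP. Per kilobase Pdk1 and Pdk3 were nearly level with each other in GFP, and the ratio depends on the exon lengths used. The genes of the dehydrogenase itself were level or slightly lower, with Pdha1 at 12.57 in Cre and 12.62 in GFP and Pdhb at 11.26 in Cre and 11.45 in GFP. Pdp1, which encodes a phosphatase that switches the complex back on and belongs to a related list, had 10.08 in Cre and 10.65 in GFP, a difference of -0.57 just short of the threshold. Of the 7 measured genes of that list, 0 were called and the median was -0.02.

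In the pentose phosphate route, which yields NADPH and ribose, 1 of 4 genes differed by more than 0.32. Pgd, which encodes phosphogluconate dehydrogenase, had 12.65 in Cre and 12.17 in GFP, a difference of 0.48. G6pdx, the gene of the rate-limiting first enzyme, had 11.67 in Cre and 11.55 in GFP, a difference of 0.13. Tkt, the transketolase gene, differed by 0.13 and Taldo1, the transaldolase gene, by 0.02. All 4 lay above 0 and none was called. Of the 8 further enzymes of this route and of ribose phosphate use, 3 lay above 0 and 0 were called, led by H6pd, the enzyme of the endoplasmic reticulum that also makes NADPH, at 0.43.

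Glycogen synthesis was represented by Gys1, the muscle-type glycogen synthase gene, with 12.14 in Cre and 11.52 in GFP, a 1.54-fold difference (chromosome 7, plus strand, 45434844 to 45456619). The phosphoglucomutase gene listed as Pgm2 on chromosome 4, which current annotation calls Pgm1 and which links glycogen to glycolysis, had 12.81 in Cre and 12.28 in GFP, a difference of 0.53. The gene listed as Pgm1 on chromosome 5, now called Pgm2, was level at 9.33 in both libraries. Pygl, the liver-type glycogen phosphorylase gene, had 10.86 in Cre and 10.63 in GFP, a difference of 0.23, whereas the brain-type gene Pygb from a related list, picked after its value was known, differed by -0.25. Pygl made up 39.6% of the phosphorylase level per kilobase in Cre and 32.0% in GFP. Among 21 further genes of glycogen and UDP-glucose use, 8 lay above 0 and 0 were called, and the largest difference was 0.50 for Gbe1, the glycogen branching enzyme gene.

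The members' differences went with their level. Of 24 members with a mean log2 value of at least 11, 22 were above 0, with a median of 0.50, and 6 were called higher. Among all 3185 genes at that level, 42.8% were above 0, the median was -0.02, 2.86% were called higher and 1.63% lower. The 16 members below that level had a median of 0.01, with 9 above 0 and 0 called. Across the 40 members the difference and the mean log2 value had Pearson's r of 0.58 and Spearman's rho of 0.66, and across all 12809 genes r was -0.0086. These correlations describe genes of 1 pair of libraries, which are not independent. If the deposited values are regularized logs, differences of less abundant genes are understated. The standard deviation of the difference among the 500 genes nearest in mean level was 0.22 round Slc2a3, a less abundant member, 0.23 round Hk2, 0.31 round Slc2a1 and 0.50 round Pgk1, so the spread over all genes was widest round the most abundant members.

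**Figure D3:**
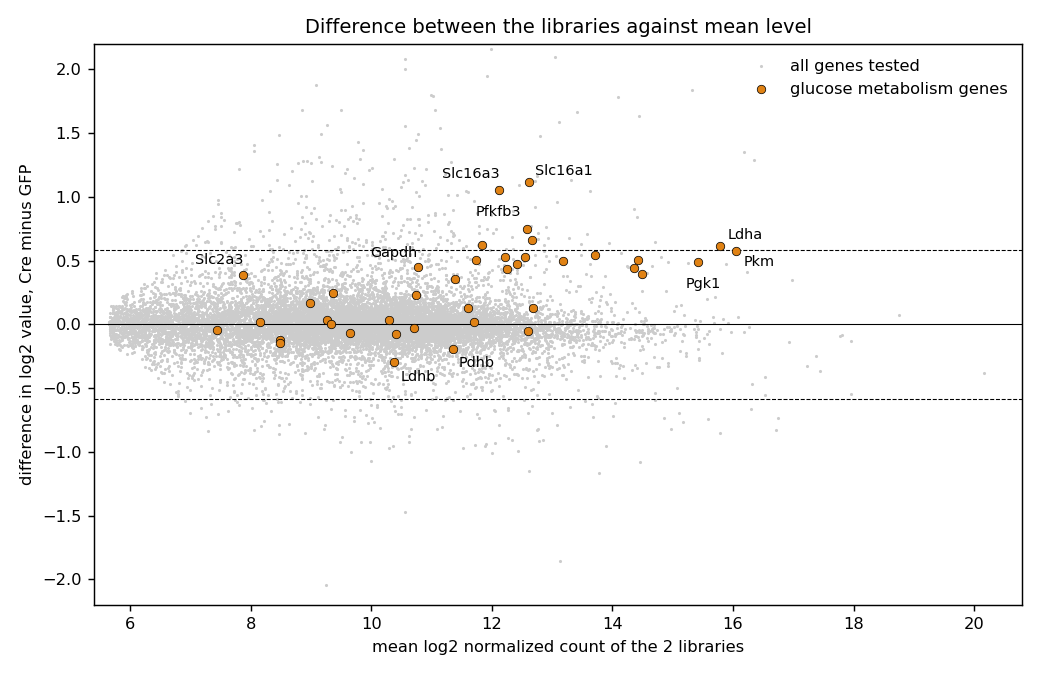
Difference in log2 value, Cre minus GFP (vertical axis), against the mean log2 normalized count of the libraries (horizontal axis), for all genes tested (grey) and the 40 glucose metabolism genes (orange); dashed lines mark a fold of 1.5, and 11 genes lie outside the vertical and 2 outside the horizontal range. Most of the abundant orange points lie near 0.5, and most of the less abundant ones scatter round 0.

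Lists of neighbouring pathways had medians near or below 0. Of 20 tricarboxylic acid cycle genes, 5 lay above 0 and 0 were called, with a median of -0.10 and a lowest value of -0.21 for Idh2, the mitochondrial isocitrate dehydrogenase gene. In the branch from glycolysis to serine, 2 of 5 lay above 0 and 0 were called. Phgdh, which opens that branch, differed by -0.43, Psph by -0.35 and Psat1 by -0.26. In the hexosamine pathway, which makes amino sugars for matrix glycans, 2 of 6 lay above 0 and 0 were called, with its first enzyme gene Gfpt1 at -0.34. The 4 measured gluconeogenesis genes had a median of -0.0026, a sign that turned under scaling to equal totals (0.0051), with 0 called and Pck2, the mitochondrial enzyme that makes phosphoenolpyruvate, at -0.30. Of 15 other isoforms of the members' own steps, 8 lay above 0 and 0 were called, with a median of 0.02 (mean -0.02). Slc2a4, the insulin-responsive glucose transporter gene, had the largest difference there, at 7.38 in Cre and 7.83 in GFP.

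HIF targets outside glucose metabolism lay on the same side as the glycolytic genes. Of 20 such genes, 19 were above 0, 8 were called higher and 0 lower, with a median of 0.55. Car9, a carbonic anhydrase gene, had 11.82 in Cre and 10.63 in GFP. Adm, a vasodilator peptide gene, had 10.34 in Cre and 9.39 in GFP, and Ddit4, an mTOR inhibitor gene, 11.69 in Cre and 10.88 in GFP. Of 9 measured HIF subunit and oxygen-sensing genes, 2 were called higher and 1 lower. The hydroxylase genes of this list went in opposite directions at the top. Egln1, the main oxygen-sensing hydroxylase gene, had 13.18 in Cre and 14.35 in GFP, a difference of -1.17. Egln3, a related hydroxylase gene, had 10.16 in Cre and 8.97 in GFP, a difference of 1.19. The HIF subunit gene Epas1 differed by 0.73. The relation of these differences to those of the members was not tested. Of 12 measured regulators of glucose metabolism, 1 was called, Arrdc4, a sugar-responsive arrestin gene, at 0.62.

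**Figure D4:**
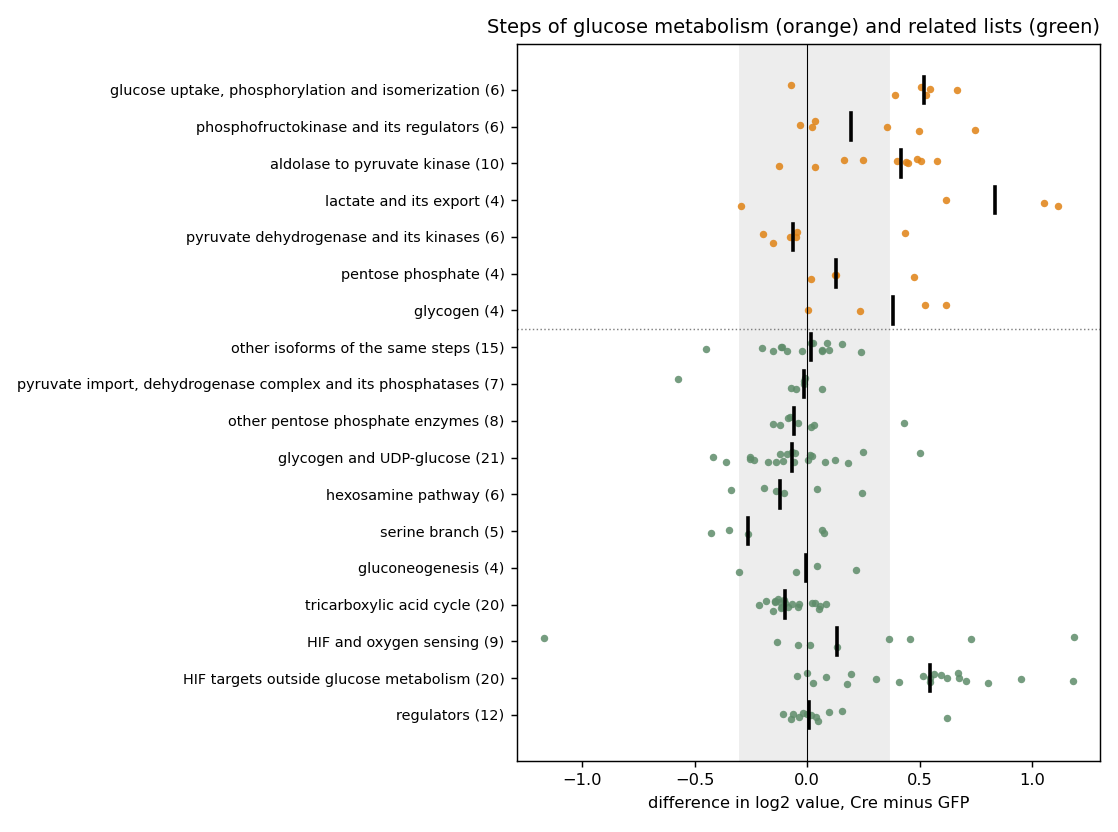
Difference in log2 value, Cre minus GFP (horizontal axis), of each gene (points) and the median (black bars) for 7 steps of glucose metabolism (orange) and 11 related lists (green), with the number of genes in brackets; points are spread vertically for legibility and the grey band spans the 5th to 95th percentile of all genes tested, -0.30 to 0.37. The medians of uptake, aldolase to pyruvate kinase, lactate, glycogen and the HIF targets outside glucose metabolism lie right of the band, and those of the other lists lie in it. The band is not matched for level. Among the 500 genes nearest in mean level, the 95th percentile was 0.35 round Gys1, 0.50 round Slc2a1, 0.55 round Aldoa and 0.62 round Pgk1.

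Markers of other cells were read beside these genes, since macrophages too are rich in glycolytic enzymes. Of 13 measured macrophage and leukocyte markers among 14 listed, 10 were above 0, 4 were called higher and 1 lower, none was at 0, and their summed linear level was 52192 in Cre and 33638 in GFP. Lyz2, the most abundant of them at 14.82 in Cre and 13.98 in GFP, weighs most in that sum. Emr1, a macrophage surface gene, had 12.62 in Cre and 11.54 in GFP, the largest difference of the list. Other markers of the list did not share it: Csf1r differed by 0.08, Cd68 by -0.05 and Mrc1, the 1 called lower, by -0.73. The part of such cells in the members' differences was not tested. Of 9 measured skeletal muscle markers, 8 were above 0, with a summed level of 3596 in Cre and 2744 in GFP, and of the 4 muscle-type members, Pkm and Gys1 differed by 0.58 and 0.62 and Pfkm and Eno3 by -0.03 and -0.13. Of 4 measured neuronal and glial markers among 9 listed, 2 were above 0, and their summed level was 461 in Cre and 447 in GFP. The median difference was 0.26 over 8 fibroblast markers and 0.12 over 4 endothelial markers, and the 1 measured erythroid marker, Alas2, differed by 0.03.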

How the data were processed

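RNA sequencing measured gene expression in 2 libraries, 1 per group. Per the submitters' processing notes, bcl2fastq 1.8.4, TopHat2 2.0.6, HTSeq and the mouse build mm10 were used; for the annotation, the strand setting and how multiply aligned reads were handled, the answer is not given in the sources used here. What the authors deposited is 1 column of log2 normalized counts per library. The transform is not described; a column heading points to a regularized log, which would understate differences of less abundant genes. The deposited difference runs GFP minus Cre and was turned to Cre minus GFP. Depth is unknown, so no counting error could be given.

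A minimum mean of 50 on the count scale was applied, and fold alone (1.5) was the call, since 1 library per group allows no test. The size rule was run on simulated data only as a check of the calculation. The folds were set and the noise was far below the spread seen here. Its outcome was therefore fixed in advance and says nothing about how reliable the calls are. Levels per kilobase divide the linear values by merged exon length in GENCODE M21. Retained introns lengthen some models. Copies were searched with BLAST 2.17.0 among GENCODE M21 transcripts. Of the 40 members, 22 overlap another annotated gene and, with the strand setting unknown, may share reads with it. Promoter sequences are from RefSeq (GRCm38.p6). Python 3.11.15, numpy 2.4.6 and pandas 2.3.3 were used. The members and all lists were chosen with earlier results of these data known. Named genes were all members, up to 3 per related list with the largest absolute difference, and Hdac3; Slc16a7, Hk3, Pygb, Gm5506, Gm12070 and the cell type markers named singly fall outside this rule and were picked with their values known. Alternatives tried were scalings, minimums, folds, the mean, and leaving out members.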

Additional observations from a re-analysis of the deposited data

How the results depend on the processing

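With 1 library per group no count interval, no replicate check and no leave-one-out value exist, and folds of less abundant genes may be understated. Shifts by the scalings were at most 0.015 on the log2 scale and turned the sign of 0 members. Of 265 alternative values, 258 stayed within 0.1 on the log2 scale, or within 1.5 times for a count, and 7 moved. Most of the 265 are scalings, whose shifts are too small to move a difference or a median past 0.1. The total of 258 therefore says little about robustness. Of 60 alternative medians other than scalings, 5 moved. No called value changed sign. The medians of 3 lists close to 0 changed sign under some alternatives: the other isoforms to -0.02, the other pentose phosphate enzymes to 0.02 and gluconeogenesis to 0.04. The count of members called higher was 6 at a fold of 1.5, 2 at 2-fold and 21 at a difference of 0.32. The median of the members, 0.37, was 0.16 without the 9 members that have near-identical copies, an alternative chosen after the data were seen; these are mostly abundant enzymes, and 31 members remained. At a minimum 10 times higher the phosphofructokinase step moved to 0.36 over 5 genes and the list of HIF and oxygen sensing to 0.25 over 8. The mean in place of the median gave 0.32 for aldolase to pyruvate kinase and 0.62 for lactate and its export, since their lowest members weigh more in a mean. No paired analysis was possible because there is a single library on each side.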
